A study of Mesocricetus auratus with 6 samples.

Results

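The alpha and beta tubulin genes were examined in uterus from Syrian golden hamsters (Mesocricetus auratus) that were pregnant, on day 5. Tissue that held an implanting embryo (implantation site) was set against tissue between embryos (interimplantation site), with 3 arrays in each of the 2 groups, no treatment in either, and total RNA from whole pieces of uterus. The labels give no age or strain beyond the species, and the design text speaks of 3 animals without saying which array came from which, so p-values measure the spread between arrays. The array was an Affymetrix one with human probes, onto which the hamster RNA was hybridised, so a dim probe set shows neither that a transcript is absent nor that it does not differ. The members are 10 genes, TUBA1A, TUBA1B, TUBA1C, TUBA4A, TUBB, TUBB2A, TUBB2B, TUBB3, TUBB4B and TUBB6. They were read at all 19 probe sets that the platform annotation gives to one of them alone, out of 22215 probe sets without array controls (11963 genes). No filter on low values was applied to them.

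Microtubules are polymers of a dimer of one alpha and one beta tubulin. Mammals carry several genes for each, and the proteins of these isotypes are nearly alike except in their acidic C-terminal tails, where enzymes add or remove amino acids and where motors and other binding proteins attach. New tubulin is folded by prefoldin and the ring-shaped CCT chaperonin and joined into dimers by tubulin cofactors, and cells adjust the stability of tubulin messages to the amount of free dimer. In rodents the uterine stroma around an attaching embryo proliferates and then differentiates into decidua, a change of cell division and cell shape in which microtubules take part.

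The tubulin probe sets that were bright on these arrays were higher at implantation sites. Of the 5 probe sets of the alpha gene TUBA1B 4 differed by 0.99 to 1.05, and those of the alpha gene TUBA1C and the beta gene TUBB3 by 0.70 to 0.89. Over the 19 probe sets the log2 difference (implantation minus interimplantation) ran from −0.13 to 1.05, with a median of 0.67, and 16 were above 0, beside 46.4% of all probe sets. The median over all 22215 probe sets was −0.01. The genes were chosen by symbol, and with these differences between the groups already known, so the differences are given as a description without a test. For the same reason nothing is read from the count past limma's threshold (an adjusted p of 0.05 over all probe sets): 14 of 19 were higher and 0 lower, beside a background of 0.702% of all probe sets higher and 0.356% lower. The groups did not overlap, with every implantation array higher, in 15 of the 19, beside 7.72% of all probe sets. In pieces of tissue, more cells of a type and more RNA per cell cannot be told apart.

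The name of a probe set says how it was designed. On the human transcripts, a name ending in _at marks probes meant to match a single gene, _s_at marks probes shared by several transcripts of usually one gene or family, and _x_at marks sets in which some probes can also match other genes. Of the 19 tubulin probe sets, 14 are _x_at, 4 are _at and 1 is _s_at. An _x_at value can therefore hold signal from several tubulin genes, and hamster sequences add a further unknown, so the isotype named on it is that of the design. In the hamster gene annotation 7 of the 10 members had a gene of the same symbol, beside 84.8% of all genes. TUBA1A, TUBA1B and TUBB2B had none, which does not show that the hamster lacks them. Probe set classes are kept apart in what follows.

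**Figure D1:**
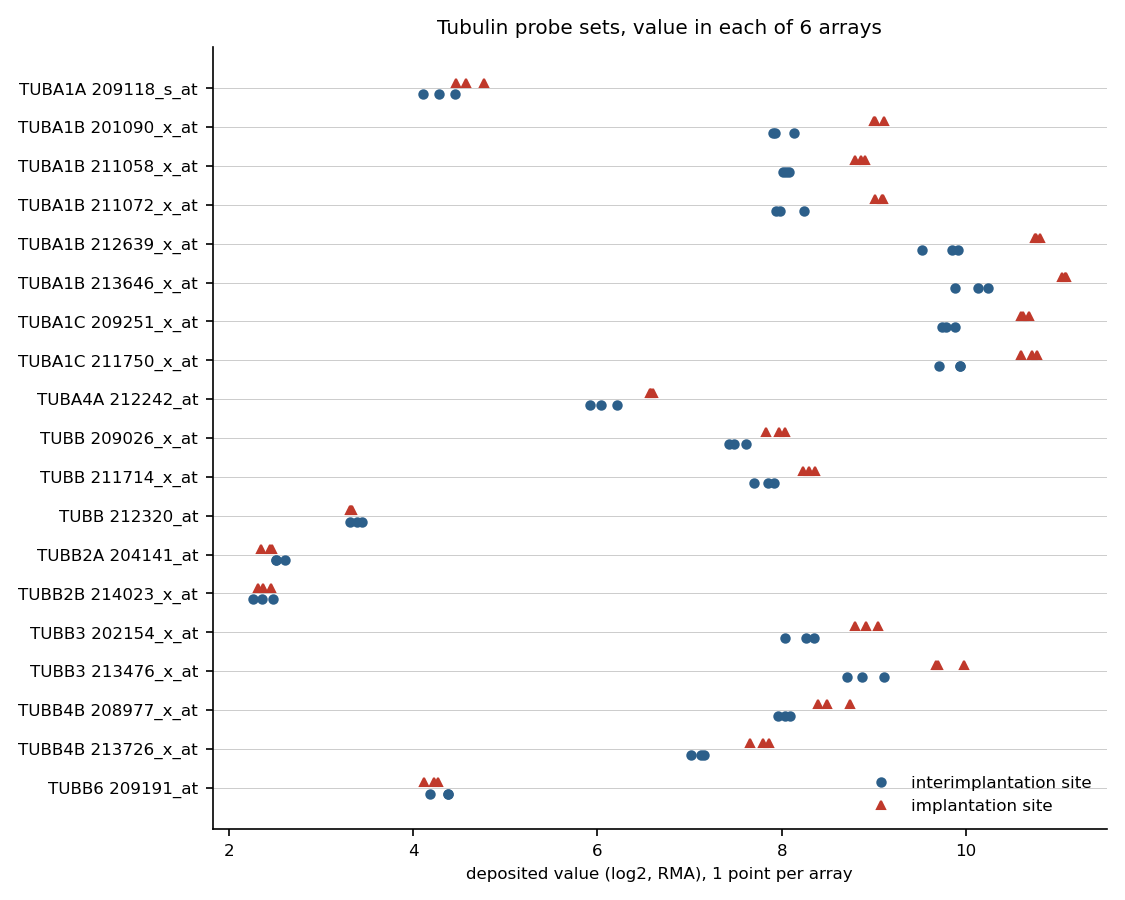
Deposited log2 value (horizontal axis) of each of the 19 tubulin probe sets in the 3 implantation arrays (red triangles) and the 3 interimplantation arrays (blue circles), 1 point per array. The points of the 2 groups stand apart at the bright alpha and beta probe sets and lie close together at TUBB 212320_at, TUBB2A, TUBB2B and TUBB6.

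TUBA1B, an alpha tubulin made in most cell types and prominent in dividing cells, was read at 5 _x_at probe sets. At the brightest, 213646_x_at, the implantation arrays held 11.09, 11.04 and 11.08 and the interimplantation arrays 9.88, 10.23 and 10.13. Every implantation array lay above every interimplantation array, by at least 0.81, and the mean difference was 0.99 ± 0.09 (SE of the limma fit), or 1.98-fold. At 212639_x_at the values were 10.81, 10.74 and 10.76 against 9.52, 9.92 and 9.84. The remaining TUBA1B sets differed by 1.05 at 201090_x_at, 1.01 at 211072_x_at and 0.80 at 211058_x_at. The gap between the nearest arrays of the groups was 0.71 at 211058_x_at, the smallest of the 5 gaps. The spread was wider at interimplantation sites at 4 of these sets, with an SD of 0.18 against 0.02 at 213646_x_at, and narrower at 211058_x_at alone (0.03 against 0.06).

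TUBA1C, a close relative of TUBA1B that is also widely expressed, was higher by a similar amount at both of its _x_at probe sets. At 209251_x_at the implantation arrays held 10.68, 10.61 and 10.60 and the interimplantation arrays 9.78, 9.87 and 9.74. The difference was 0.83 ± 0.07 (SE), or 1.78-fold, and it was 0.83 ± 0.09 (SE) at 211750_x_at. The 7 alpha _x_at probe sets of these genes thus lay between 0.80 and 1.05, and groups overlapped in none of them. When quantile normalization was repeated on the deposited values, the TUBA1C differences came to 0.55 and 0.56 and that of TUBA1B at 213646_x_at to 0.68, so the size of these differences depends on how the brightest values are scaled, while their direction does not.

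TUBA4A, whose message encodes an alpha tubulin without the terminal tyrosine found in most others, was read at an _at probe set, 212242_at. The implantation arrays held 6.61, 6.57 and 6.58, an SD of 0.02, and the interimplantation arrays held 5.91, 6.21 and 6.03. The groups were separated by 0.35 and the difference was 0.53 ± 0.09 (SE), or 1.45-fold. This was the single _at probe set among the members that was higher at implantation sites. Without any 1 array the difference stayed between 0.46 and 0.61.

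TUBA1A, an alpha tubulin best known from the developing nervous system, was read at the one _s_at probe set, 209118_s_at. Its values were 4.46, 4.58 and 4.77 at implantation sites and 4.11, 4.28 and 4.45 at interimplantation sites. The nearest arrays of the groups differed by 0.01, well within the spread inside each group (SD 0.16 and 0.17). The difference was 0.32 ± 0.11 (SE), and it was not among those past the threshold. A probe set that names TUBA3D and TUBA3C together is no member, but 2 such _x_at sets of that alpha pair stood at 0.58 ± 0.11 and 0.57 ± 0.09 (SE).

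**Figure D2:**
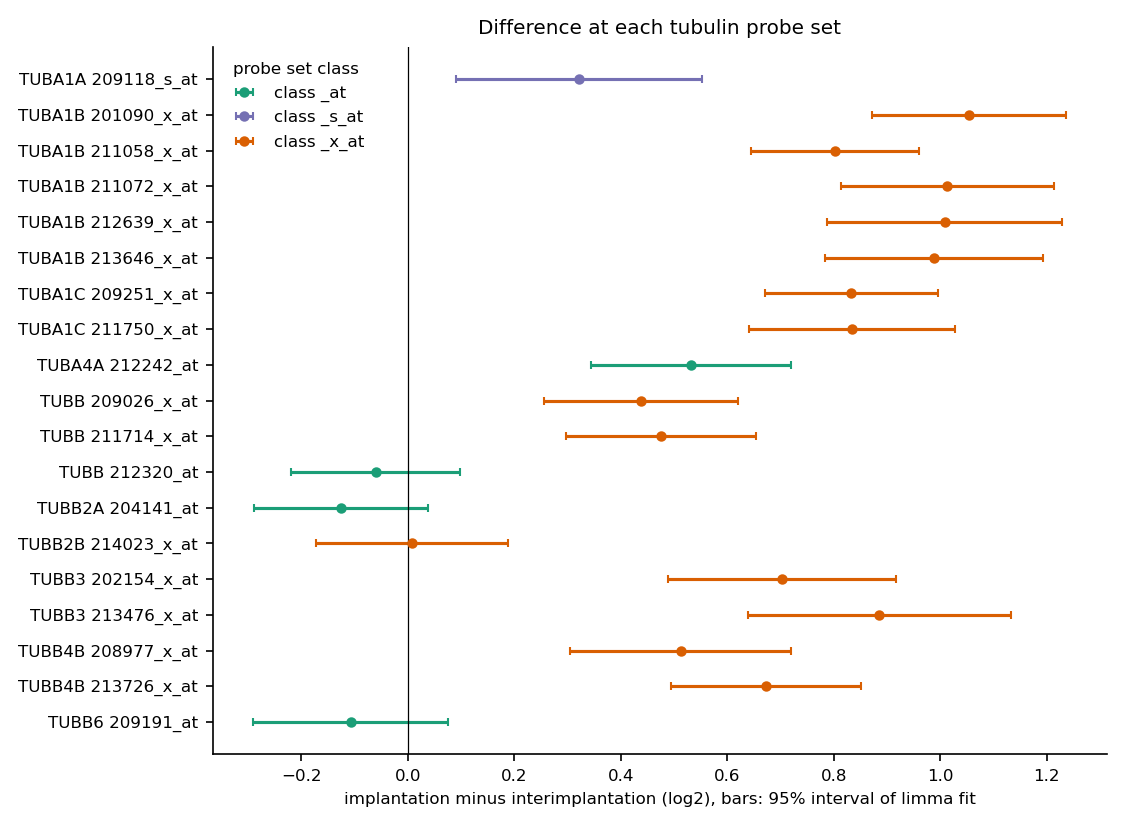
Implantation minus interimplantation difference (log2, horizontal axis) at each tubulin probe set, with the 95% interval of the limma fit, coloured by probe set class. The 7 alpha _x_at sets lie between 0.80 and 1.05, while the intervals of TUBB 212320_at, TUBB2A, TUBB2B and TUBB6 include 0.

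Beta probe sets were less uniform than alpha probe sets. Of 10 beta probe sets, 7 were above 0 and 3 below, with a median of 0.46, against 9 of 9 and a median of 0.83 for alpha. The 2 sides are not alike in their sets, however. All 9 alpha sets but only 7 of the 10 beta sets were at or above the median brightness. Of the 9 alpha sets, 7 were _x_at sets of TUBA1B and TUBA1C, which can share signal. TUBB3, the class III beta tubulin used as a marker of neurons but also made in other cells, showed the highest differences among the beta genes, at both of its _x_at sets. At 213476_x_at the implantation arrays held 9.97, 9.69 and 9.68 and the interimplantation arrays 8.71, 9.11 and 8.87. The difference was 0.89 ± 0.11 (SE), or 1.85-fold, and the groups did not overlap. At 202154_x_at it was 0.70 ± 0.10 (SE), with values of 9.05, 8.91 and 8.80 against 8.35, 8.26 and 8.04. Markers of neurons were fixed as 9 genes (UCHL1, SNAP25, SYT1, NEFL, NEFM, ELAVL4, STMN2, GAP43 and PRPH). In limma's test 0 of the 9 passed and 0 had an unadjusted p under 0.05. Their median difference was 0.04, and their mean level was 4.38 to 4.45 in implantation arrays and 4.37 to 4.42 in interimplantation arrays. Only 4 of the 9 were at or above the median brightness, and the dim ones set no bound on a change. The part of neurons in the TUBB3 signal was not tested.

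TUBB4B, a beta tubulin found in most tissues and in cilia, had 2 _x_at probe sets. At 213726_x_at the values were 7.86, 7.80 and 7.65 at implantation sites against 7.16, 7.12 and 7.01, a difference of 0.67 ± 0.08 (SE). At 208977_x_at they were 8.74, 8.49 and 8.40 against 7.96, 8.04 and 8.09, a difference of 0.51 ± 0.09 (SE). Groups did not overlap at either set. Implantation array 1 was the highest and implantation array 3 the lowest of their group at both, as at 202154_x_at and 213476_x_at of TUBB3.

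TUBB, the main beta tubulin of most cells, gave different values at its _x_at and _at probe sets. At the _x_at set 211714_x_at the implantation arrays held 8.30, 8.36 and 8.24 and the interimplantation arrays 7.91, 7.85 and 7.70. The difference was 0.48 ± 0.08 (SE), or 1.39-fold, and at the other _x_at set, 209026_x_at, it was 0.44 ± 0.08 (SE). The _at set 212320_at held 3.32, 3.32 and 3.34 against 3.45, 3.32 and 3.39. Here the groups overlapped and the difference was −0.06, with a 95% interval of −0.22 to 0.10 for this probe set's signal. This _at set was dim, at percentile 30.7 of the mean brightness of all probe sets, whereas the TUBB _x_at sets were at percentiles 99.2 and 99.4, and at that brightness it sets no bound on the change of the transcript.

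TUBB2A and TUBB2B, near-identical beta tubulins of brain and other tissues, were at the dark end of the array. TUBB2A at 204141_at (percentile 10.9) held 2.47, 2.35 and 2.44 against 2.51, 2.51 and 2.61, a difference of −0.13 with an interval of −0.29 to 0.04. All 3 implantation arrays were lower, by a margin of 0.04 between the nearest arrays. TUBB2B at 214023_x_at (percentile 8.13) held 2.31, 2.37 and 2.46 against 2.48, 2.26 and 2.36, and its difference was 0.01 with an interval of −0.17 to 0.19. It was the one _x_at set that was not higher. A brighter _x_at set, 209372_x_at, is annotated to both genes and is therefore counted under neither. This shared set held 6.31, 5.95 and 5.92 against 5.53, 5.88 and 5.34, and its groups were separated by 0.04. Its difference was 0.47 ± 0.14 (SE), with an interval of 0.17 to 0.77, and it was not past the threshold. TUBB6, a further beta tubulin of many tissues, held 4.12, 4.23 and 4.26 against 4.18, 4.38 and 4.37 at 209191_at. Its groups overlapped, and the difference was −0.11 with an interval of −0.29 to 0.08.

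By class, the 14 _x_at sets had a median difference of 0.82 and the 4 _at sets a median of −0.08, with the _s_at set of TUBA1A at 0.32. Past the threshold were 13 of 14 _x_at sets, 1 of 4 _at sets and 0 of 1 _s_at set, beside 1.69% of all _x_at and 0.399% of all _at probe sets of the array that were higher. Class and brightness ran together among the members. The 13 sets with an interimplantation mean above 7 were all _x_at sets and were all past the threshold, beside 10.3% of the 407 probe sets of the array that are as bright. The 3 sets below the median brightness (TUBB 212320_at, TUBB2A and TUBB2B) lay between −0.13 and 0.01. TUBA4A, an _at set of brightness percentile 94.8, and TUBB6, an _at set at percentile 51.7, were the 2 _at sets above the median brightness. Whether class or brightness goes with the size of the difference cannot be told apart with so few sets.

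**Figure D3:**
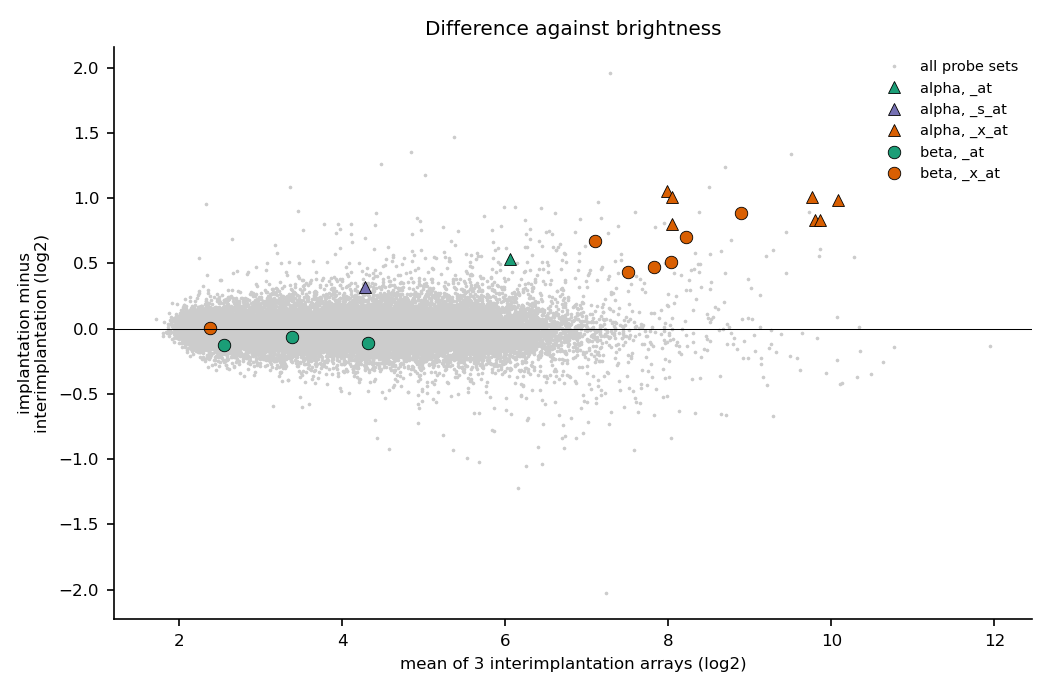
Implantation minus interimplantation difference (log2, vertical axis) against the mean of the 3 interimplantation arrays (log2, horizontal axis) for all 22215 probe sets (grey) and the tubulin probe sets (triangles alpha, circles beta, coloured by class). The 13 tubulin sets with a mean above 7 lie between 0.44 and 1.05, and the 3 dimmest between −0.13 and 0.01.

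The alpha and beta sides can be set beside each other within an array. The mean of the 7 alpha _x_at sets was 10.06, 9.97 and 10.02 in implantation arrays and 8.97, 9.20 and 9.08 in interimplantation arrays. The mean of the 6 beta _x_at sets above the median brightness was 8.65, 8.55 and 8.43 against 7.92, 7.98 and 7.89. The difference was 0.93 for alpha and 0.61 for beta. The alpha mean minus the beta mean was 1.41, 1.42 and 1.59 in implantation arrays and 1.05, 1.22 and 1.19 in interimplantation arrays, so the alpha side differed by 0.32 more in these signals. After repeated quantile normalization it differed by 0.20 more (0.74 for alpha and 0.54 for beta), and when single arrays were left out by 0.26 to 0.35. Only the change of this ratio is meaningful, because different probes do not share a scale, and it does not give the ratio of alpha to beta transcripts.

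Within a group the alpha _x_at probe sets varied together. As deviations from the group mean, the alpha _x_at sets averaged −0.11, 0.12 and −0.01 in interimplantation arrays 1, 2 and 3 and 0.04, −0.05 and 0.00 in the implantation arrays. Interimplantation array 1 was below its group mean in every one of the 7 sets and interimplantation array 2 above it in every one. The beta _x_at sets averaged 0.01, 0.03 and −0.04 in the interimplantation arrays and 0.08, 0.00 and −0.08 in the implantation arrays. The median correlation of such deviations over the 6 arrays was 0.59 (range −0.48 to 0.97) over 25 pairs of alpha sets of different genes. Over 16 pairs of the same gene it was 0.57 (−0.28 to 0.99). For 40 beta pairs of different genes it was −0.05 (−0.92 to 0.94). For 90 pairs of an alpha with a beta set it was 0.03 (−0.97 to 0.88). Sets that share probes or transcripts share signal, so these correlations are a description of the arrays.

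**Figure D4:**
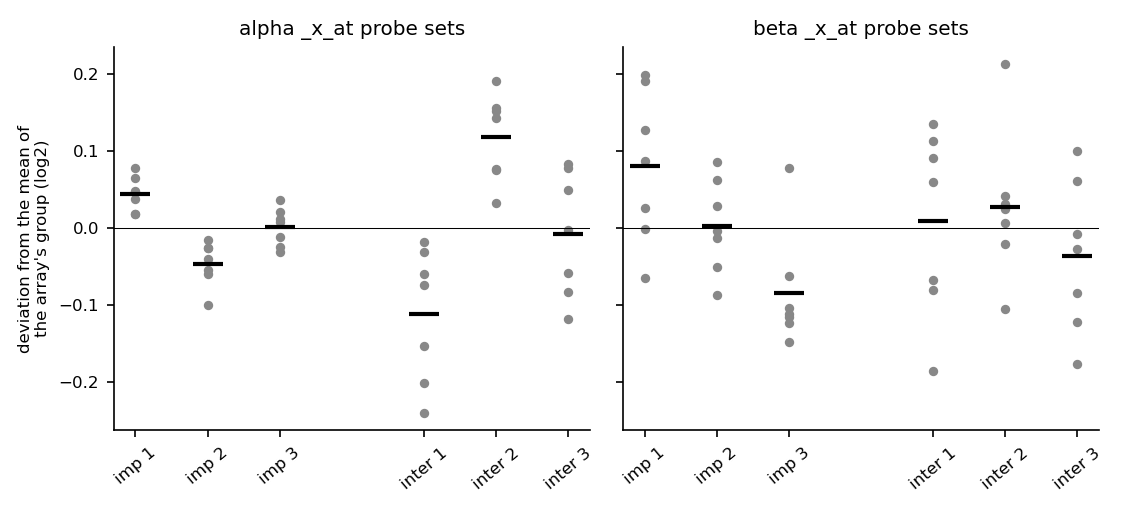
Deviation of each array's value from the mean of its group (log2, vertical axis) for the 7 alpha and 7 beta _x_at probe sets (grey points, 1 per probe set), with their mean (black bar), in implantation (imp) and interimplantation (inter) arrays. The alpha sets were all low in interimplantation array 1 and all high in interimplantation array 2, whereas the beta sets were spread on both sides of 0 there.

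The array also held tubulins outside the 10 genes. Of 12 such genes listed, 7 had a probe set of their own: the beta tubulins TUBB1 (of platelets) and TUBB4A (of brain), the alpha tubulins TUBA8 and TUBAL3, the gamma tubulins TUBG1 and TUBG2, which start microtubules at the centrosome, and TUBD1, a delta tubulin of centrioles. In limma's test over 11963 genes, each read at its brightest probe set, 0 of 7 passed and 0 had an unadjusted p under 0.05, beside 0.777% of all genes higher and 0.46% lower. The smallest p belonged to TUBA8 (log2 −0.15 ± 0.08 SE, adjusted p = 0.540) and TUBG2 (0.14 ± 0.08 SE, adjusted p = 0.571). Of the 7, 1 was at or above the median brightness, and their differences ran from −0.16 to 0.14. The 2 _x_at sets that name TUBA3D and TUBA3C together are not in this count; both were past the threshold over all probe sets (0.58, adjusted p = 0.0343, and 0.57, adjusted p = 0.0131).

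Genes that fold tubulin, bind it or move along microtubules were taken from 8 lists of textbook members, that of the other tubulins included. These lists were written with earlier results of these data known, so their calls and p-values are a description and no independent test. Together they held 159 genes besides the 10, of which 138 were measured. In limma's test 5 rose and 0 fell at implantation sites, beside a background of 0.777% higher and 0.46% lower, while an unadjusted p under 0.05 was found for 14 higher and 7 lower genes, beside 5.68% of all genes higher and 5.22% lower at that level. The median difference over the 138 was −0.01, as was that over all genes. Of the 5 that rose, 3 were subunits of the CCT chaperonin. The count of rises was 2 without implantation array 1, interimplantation array 2 or interimplantation array 3, 3 without implantation array 2 or implantation array 3, and 5 without interimplantation array 1.

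In the folding list 3 of 19 measured genes rose and 0 fell, and all 3 encode CCT subunits. CCT4 held 8.20, 8.19 and 8.11 at implantation sites against 7.19, 7.53 and 7.43, and rose by 0.79 ± 0.09 (SE; limma adjusted p = 0.00145). It stayed past the threshold in each of 18 alternatives. CCT4 has 1 probe set, so those that combine or choose among a gene's probe sets leave its values unchanged. CCT8 rose by 0.51 ± 0.08 (SE, adjusted p = 0.00694) and CCT3 by 0.51 ± 0.09 (SE, adjusted p = 0.0143), each at a probe set below the median brightness. The _at probe set of CCT8 gave 0.06 (adjusted p = 0.859) and the mean of both of its probe sets 0.29 (adjusted p = 0.0969), neither past the threshold. CCT3 missed the threshold without implantation array 1 or 2 or interimplantation array 2 or 3 (adjusted p up to 0.0747). Further subunits that did not pass were CCT2 at 0.45 (adjusted p = 0.0974), CCT7 at 0.37 (0.0524), CCT5 at 0.29 (0.254) and CCT6A at 0.13 (0.591). CCT7 passed in 4 of 18 alternatives (adjusted p from 0.0265 to 0.182 over all of them). The cofactors that join alpha to beta did not pass either: TBCA, TBCB, TBCC, TBCD and TBCE ran from −0.18 (TBCD) to 0.06 (TBCB), and their partner ARL2 stood at −0.01. Among the prefoldin subunits, which hand tubulin to CCT, PFDN5 was at −0.39 (adjusted p = 0.202) and VBP1 at 0.24 (adjusted p = 0.419). Of the factors of tubulin message decay, SCAPER was at 0.05 (adjusted p = 0.922) and CNOT1 at 0.02 (adjusted p = 0.967), and 0 of the 2 measured had an unadjusted p under 0.05 in limma's test.

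Of 28 measured proteins that bind the microtubule lattice or its ends, TPPP3, which promotes tubulin polymerisation, rose and 0 fell. It held 4.79, 4.53 and 4.72 against 4.18, 4.26 and 4.28, a rise of 0.44 ± 0.08 (SE, limma adjusted p = 0.0270). It missed the threshold without implantation array 1 or 3 or any interimplantation array (highest adjusted p 0.122). The median of that list was −0.02. The list of kinesin, dynein and dynactin motors and proteins that act with them held 39 measured genes. Among them DYNLL1, a dynein light chain that also binds many other proteins, rose and 0 fell. It held 3.35, 3.09 and 3.02 against 2.65, 2.79 and 2.69, a rise of 0.44 ± 0.09 (SE, adjusted p = 0.0484) at a dim probe set (percentile 21.2). The call held in 4 of 16 alternatives. It was lost with each of the 6 arrays left out in turn (highest adjusted p 0.167) and, among others, after cyclic loess (0.0531) and when the replicate number entered as a block (0.0609). The kinesin KIF1B stood at −0.41 ± 0.09 (SE, adjusted p = 0.0513), with 4.47, 4.71 and 4.69 against 5.07, 5.12 and 4.92, and the list median was −0.06.

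In the remaining lists 0 genes passed limma's test. In the list headed destabilising and severing proteins, 11 genes were measured. An unadjusted limma p under 0.05 was found for 0 higher and 1 lower, the severing factor KATNBL1 at −0.23 (adjusted p = 0.242). Next came the katanin subunit KATNA1 at 0.17 (adjusted p = 0.490). In the list of tubulin tail and lysine modification, which also holds the scaffold protein MAPK8IP3, 15 genes were measured. At that level 0 were higher and 2 lower, the carboxypeptidase AGBL2 at −0.28 (adjusted p = 0.292) and the glutamylase TTLL7 at −0.25 (adjusted p = 0.394). Of 17 measured genes of the gamma tubulin ring and centrosome, 1 was higher and 0 lower, NINL at 0.17 (adjusted p = 0.458), and CEP192 stood at −0.12 (adjusted p = 0.735). The tubulin difference was thus accompanied in these lists by calls in the chaperonin and in single genes, with list medians between −0.06 and 0.05.

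**Figure D5:**
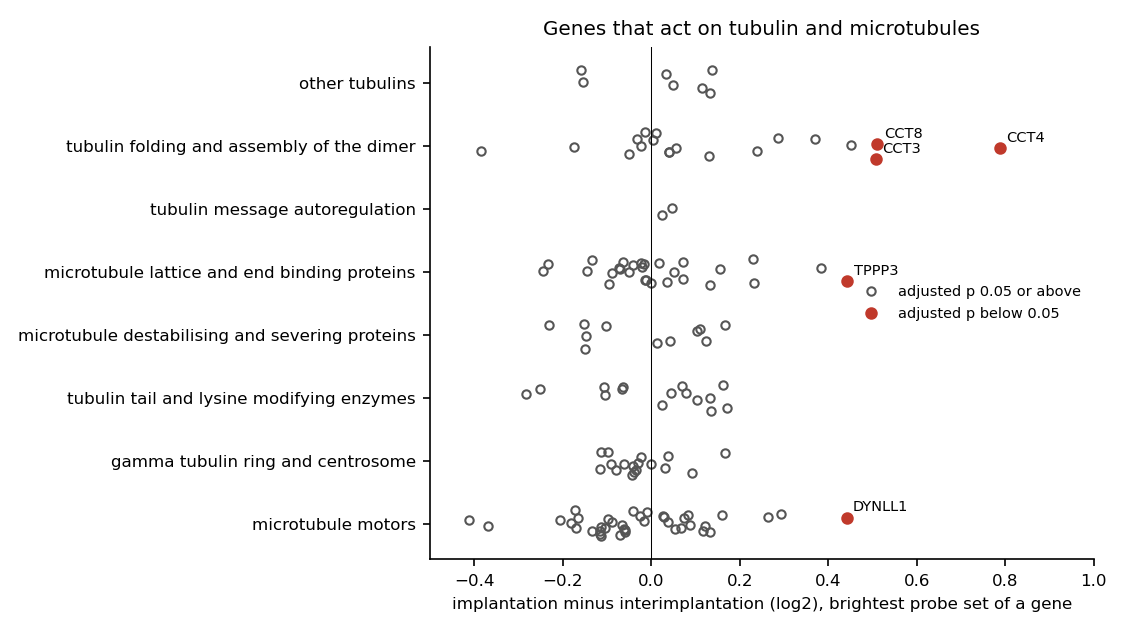
Implantation minus interimplantation difference (log2, horizontal axis) of each measured gene in 8 lists of tubulin and microtubule genes, each gene at its brightest probe set and spread vertically at random within its list. Filled points are the 5 genes with a limma adjusted p under 0.05, CCT4, CCT8, CCT3, TPPP3 and DYNLL1.

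Among 7266 genes other than the 10 tubulins at or above the median brightness, those whose values over the 6 arrays were most like TUBA1B at 213646_x_at were VCAN (Pearson r = 0.998), which encodes the matrix proteoglycan versican, and CCT4 (0.996). RAN (0.994), a GTPase of nuclear transport, and the proteasome subunits PSMA3 (0.994) and PSMA7 (0.992) followed. An r of 0.9 or more was reached by 192 of these genes. The 6 points fall into 2 groups that share the same arrays, so r mostly follows the difference between the groups.

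Other measures of these arrays also moved with the groups. Of 12 genes of proliferating cells, 0 passed in limma's test, while 6 that were higher and 0 that were lower had an unadjusted p under 0.05 (CDK1, RRM2, CDC20, CCNB1, MKI67 and PLK1), beside 5.68% of all genes higher at that level. CDK1 stood at 0.34 (adjusted p = 0.0786). In this list 7 of the 12 genes were above 0, and the lowest were TOP2A at −0.15 and MCM2 at −0.11. The mean level of the 12 was 4.48 to 4.62 in implantation arrays and 4.42 to 4.43 in interimplantation arrays. Mean levels of 8 epithelial markers were lower at implantation sites, with no overlap (4.12 to 4.18 against 4.27 to 4.34). So were those of 8 smooth muscle markers (5.28 to 5.33 against 5.41 to 5.57). For single genes, 1000 of all 11963 were higher and 968 lower without overlap, and no such share was worked out for list means. TAGLN at −0.56 and ACTG2 at −0.80 were lower in limma's test (adjusted p = 0.0310 and 0.0392), beside 0.777% of all genes higher and 0.46% lower. In the smooth muscle list 4 of 8 genes were above 0 and the median was −0.01, with ACTA2 at 0.15, higher in every implantation array, and LMOD1 at 0.10. The mean level of 4 erythrocyte markers was also lower at implantation sites, with no overlap (5.99 to 6.03 against 6.12 to 6.14). Of these 4, 1 was above 0, SLC4A1 at 0.16. For 5 markers of ciliated epithelium the mean level was 4.94 to 5.05 against 4.92 to 4.94. The mean levels of the endothelial (8 genes), leukocyte (7), trophoblast (7) and stromal and decidual (8) lists overlapped between groups; COL1A1 was higher and PDGFRA lower in the stromal list (adjusted p = 0.00694 and 0.00486). Of the uterine markers WT1 rose (0.74, adjusted p = 0.0141) from 6.50 to 7.24, ESR1 stood at 5.47 and 5.33, and PGR was dim at 3.22 and 3.34 in implantation and interimplantation sites. The log2 ratio of the 5′ to the 3′ actin control probe sets, on matching RNA a measure of RNA quality, was 2.08 ± 0.22 against 1.70 ± 0.15 (SD, n = 3). Its exact permutation p was 0.1, the smallest these group sizes allow. The same ratio for GAPDH was 0.20 ± 0.16 against −0.13 ± 0.17 (SD, n = 3; exact permutation p = 0.2), and its groups overlapped. How well hamster RNA matches the human probes at either end is not known, so these ratios may not measure RNA quality alone. The part of cell types and RNA quality in the tubulin differences was not tested.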

How the data were processed

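Per the submitters' processing notes, the authors used Partek 6.6 and RMA, and they deposited log2 values, 1 for each probe set on each array. RMA removes background, equalises arrays and summarises probes, so a change in total RNA is not visible. The log base is not stated and was read as log2 from the range of values (1.65 to 12.08). Array medians lay between 4.18 and 4.20. Of 22283 probe sets 68 array controls were left out.

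The 10 genes and all lists were chosen with earlier results of these data known. Genes came from the platform annotation, 1 gene per probe set. All probe sets or all genes (brightest probe set each) were fitted with limma 3.58.1 in R 4.3.3 (lmFit, eBayes, 2 groups, two-sided), with Benjamini-Hochberg adjustment and a threshold of 0.05. The fit was tested on simulated data. Named were the 10 genes, every gene of a list past the threshold or else its 2 smallest p, marker genes past the threshold, and the 5 genes most like TUBA1B. CCT, TBC, prefoldin, KIF1B and marker genes that did not pass were named after their values were seen. No sequences and no scan dates were used here. The number of arrays limits the precision.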

Additional observations from a re-analysis of the deposited data

How the results depend on the processing

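The tubulins were chosen with these differences known, so the counts here describe how the calls depend on processing and are no support for them. Tubulin probe sets past the threshold numbered 13 or 14 higher and 0 lower under other normalizations, brightness filters, variance models and replicate blocks. They numbered 10 to 12 higher and 0 lower when single arrays were left out. Those lost were TUBA4A (without implantation array 1 or 3 or interimplantation array 3), TUBB 209026_x_at (without any array but interimplantation array 3), TUBB 211714_x_at (without any but interimplantation array 1) and TUBB4B 208977_x_at (without any but implantation array 3). Over 277 recomputed tubulin differences 272 moved by less than 1 SD and 5 alpha differences by more, all after repeated quantile normalization. The brightness filters, the trended and robust variance model and the replicate blocks leave a difference unchanged by construction. Part of the 277 therefore could not move, and their number overstates how far the differences were tried. Dim probe sets give no bound on a change.

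Among related microtubule genes, the count higher was 5 and ranged from 2 to 5 without single arrays, with 0 lower throughout; the 5 without interimplantation array 1 included MAPRE1 and KIF5B, at 0.54 and 0.56. It was 3 and 2 among genes at or above the median and the third quartile of brightness (74 and 38 genes tested), and 3 without _x_at and _s_at probe sets (75 tested). It was 6, with CCT7 added, with the trended and robust variance model and with the random replicate block. The count lower was 1 in place of 0 with the median brightness filter, array weights and the random replicate block (KIF1B in each), and 1 with the replicate number as a fixed block (PFDN5, adjusted p = 0.0499). With that block 13 tubulin probe sets and 5 related genes were higher, DYNLL1 lost and CCT2 gained (adjusted p = 0.0194). Same-numbered arrays correlated at −0.002 to 0.07 in their deviations from group means, and 4 of 6 arrays correlated best with their own number. These values do not settle whether the numbers mark pairs, and no label says so. The main fit took the arrays as unpaired, and the replicate blocks above give the counts if they are pairs.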
